A study of Danio rerio with 8 samples.

Results

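Genes that mark the other cell types of the zebrafish heart were examined in RNA-Seq libraries of sorted ventricular cardiomyocytes, as a check of what else the sort had collected. The list held 42 genes of endothelium, epicardium, mural cells and fibroblasts, leukocytes, erythrocytes, glia and thrombocytes. They were looked up by symbol among the 31388 genes of the deposited table, with upper and lower case treated alike and with a human-style capital symbol accepted where the zebrafish paralog letter was missing. Of these 42 genes, 37 were found, in 38 rows, because *slc4a1a* could be either of 2 rows named SLC4A1. The other 5, *pecam1*, *pdgfrb*, *mpx*, *mpeg1.1* and *hbba1*, had no row under their symbol and were not analysed here.

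The cells came from ventricles of adult fish of 6 to 9 months that carried both the Tg(tbx5:GFP) and the (myl7:nucDsRed) transgene. GFP is driven by regulatory sequence of *tbx5a*, and the red nuclear protein by the promoter of the cardiomyocyte gene *myl7*. Cells with both colours formed the *tbx5a*+ population and cells with nuclear red alone the *tbx5a*− population, so that every library, in either population, was gated on the same cardiomyocyte transgene. Each population had 4 libraries, numbered 2, 8, 9 and 10, and each replicate pooled 5 hearts. No unsorted ventricle was measured, so a marker level cannot be turned into a share of cells, and fewer cells of a type cannot be told apart from less of its RNA per cell.

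A ventricle is built mostly of muscle, but cardiomyocytes share it with many smaller cells. Endothelial cells line the coronary vessels and, as endocardium, every trabecula. The epicardium is a mesothelial sheet over the cortical layer, and it gives rise to pericytes and fibroblasts. Macrophages, nerve-associated glia and blood fill the remaining spaces, and erythrocytes of fish keep their nucleus and their transcripts. Transcripts of these cells can enter a cardiomyocyte library with a cell that adheres to a cardiomyocyte or as free RNA from lysed cells, and some genes used as markers are also transcribed in muscle.

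The libraries came to between 7149173 and 9491728 estimated reads. They had 13706 to 14983 genes above 0 in *tbx5a*+ and 11329 to 13793 in *tbx5a*− cardiomyocytes, the fewest in the *tbx5a*− libraries of replicates 9 and 2, which were also left out as a check. In the order of replicates 2, 8, 9 and 10, which is kept throughout, *tbx5a* itself (listed as TBX5) had normalised values of 4919, 3494, 3197 and 4919 in *tbx5a*+ and of 442, 346, 90.5 and 119 in *tbx5a*− libraries. The 29 rows of a cardiomyocyte reference list took 13.0% to 16.1% of the signal of a library, and the populations overlapped in this share. As summed normalised values, the 29 rows were higher in the *tbx5a*+ library of 4 of 4 pairs. These sums did not overlap, at 1167210 to 1337660 in *tbx5a*+ and 1078650 to 1152250 in *tbx5a*− libraries. The rows with the most signal among them were 2 rows of titin, with means of 431768 and 382317 for the one and of 253271 and 214277 for the other in *tbx5a*+ and *tbx5a*− cardiomyocytes, and the troponin gene *tnnt2a*, with 112615 and 124238.

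Markers of other cell types mostly had low values. Of the 38 rows, 10 were at 0 in all 8 libraries, a smaller share than the 36.3% of all genes in the table, 19 were above 0 in some libraries, and 9 were above 0 in all 8 (against 25.8% of all genes). Of the 28 rows detected anywhere, 20 stayed below a normalised value of 60 in every library, where 1 read is worth about 1 unit (0.859 to 1.19, depending on the library). The share of all detected genes below 60 was not counted, so these low values cannot be read as particular to markers. The 8 that reached 60 were *nfatc1*, *wt1b*, *aldh1a2*, *krt8*, *krt94*, *podxl*, *cspg4* and *rgs5b*, so that they belonged to the endothelial, epicardial and mural lists and none to leukocytes, erythrocytes, glia or thrombocytes. All 38 rows together made up 0.0424% to 0.0710% of the signal of a library. Without *krt8*, *podxl* and *cspg4*, which were set aside after their values were seen, the share differed by population. It was 0.00345% to 0.00489% in *tbx5a*+ and 0.00513% to 0.0138% in *tbx5a*− libraries, without overlap. The sums of normalised values overlapped, at 308.1 to 446.7 and 421.8 to 1083, and were higher in the *tbx5a*− library of 3 of 4 pairs. This difference was not tested. Much of it came from *krt94* and *rgs5b*, with means of 39.2 and 82.8 in *tbx5a*+ and of 179.8 and 176.7 in *tbx5a*− libraries. With these genes left out as well, the shares of the populations overlapped. They were picked for their own differences in these libraries, so the overlap does not show that the other markers were alike. A value of 0 for a gene in a library allows up to 3 reads, or 0.316 to 0.420 CPM (reads scaled to a common library total), and this limit covers counting error only, because copies made by amplification were read as well.

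**Figure D1:**
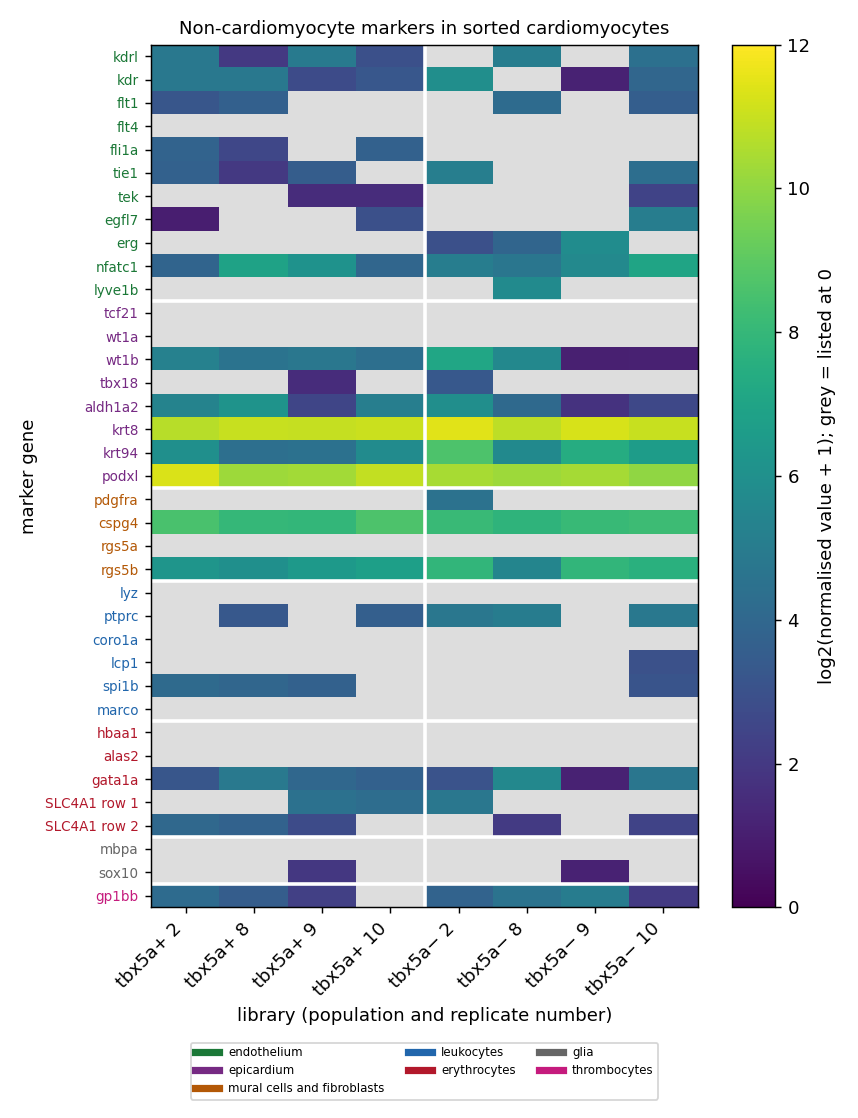
Heat map of log2(normalised value + 1) for 37 of the 38 marker rows (vertical axis, coloured by cell type) in the 8 libraries (horizontal axis, *tbx5a*+ at the left, *tbx5a*− at the right, by replicate number); grey cells were listed at 0, and SLC4A1 rows 1 and 2 are the 2 rows that may be *slc4a1a*. Of these rows, 10 are grey throughout, and *krt8* and *podxl* form the brightest bands in both populations.

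The question of the comparison was whether these markers were unequal between the 2 sorted populations. Genes that reached 1 CPM in 2 libraries or more entered a limma fit on log2(normalised value + 1), and 21 of the 38 rows passed this filter (against 44.3% of all genes). To be called, a gene needed an adjusted *p* (Benjamini–Hochberg, over all 13895 genes tested) no larger than 0.05 and a difference of 1 or more on the log2 scale. limma called 0 of the 21 rows, against 0.194% of all genes tested (0.0072% toward *tbx5a*+ and 0.187% toward *tbx5a*− cardiomyocytes). limma-voom called 0 too, and so did limma with the replicate number as a block, which called 0.417% of all genes (0.137% toward *tbx5a*+ and 0.281% toward *tbx5a*−). At an unadjusted *p* under 0.05, limma and limma-voom each had 0 rows toward *tbx5a*+ and 2, *krt94* and *erg*, toward *tbx5a*− cardiomyocytes. Of all genes, limma had 7.06% at that level, 4.62% toward *tbx5a*+ and 2.44% toward *tbx5a*−. With the block, *podxl* joined them as 1 row on the *tbx5a*+ side.

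In none of the 21 rows did all 4 libraries of one population lie above all 4 of the other, which was so for 3.97% of all genes tested, 2.32% with *tbx5a*+ and 1.65% with *tbx5a*− on top. The log2 fold change lay above 0 in 11 of the 21 rows and in 61.3% of all genes. Reads were found in *tbx5a*+ libraries alone for 1 row, *fli1a*, and in *tbx5a*− libraries alone for 4, *erg*, *lyve1b*, *pdgfra* and *lcp1*, against 8.33% and 5.16% of all genes. The median log2 fold change of the 21 rows was 0.23, and that of all genes tested 0.20. A positive value means a higher mean of log2(value + 1) in *tbx5a*+ cardiomyocytes. In 3 of the 21 rows, *kdr*, *wt1b* and *gata1a*, it was positive although the mean of the normalised values was the higher one in *tbx5a*− cardiomyocytes. The added 1 draws fold changes of genes with few reads toward 0. For most of these genes a large difference could not have been shown. The 95% intervals of *kdrl*, *tie1* or *gata1a* reached from below -1 to above 1 on the log2 scale, and the absence of a call does not show that the levels were alike.

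**Figure D2:**
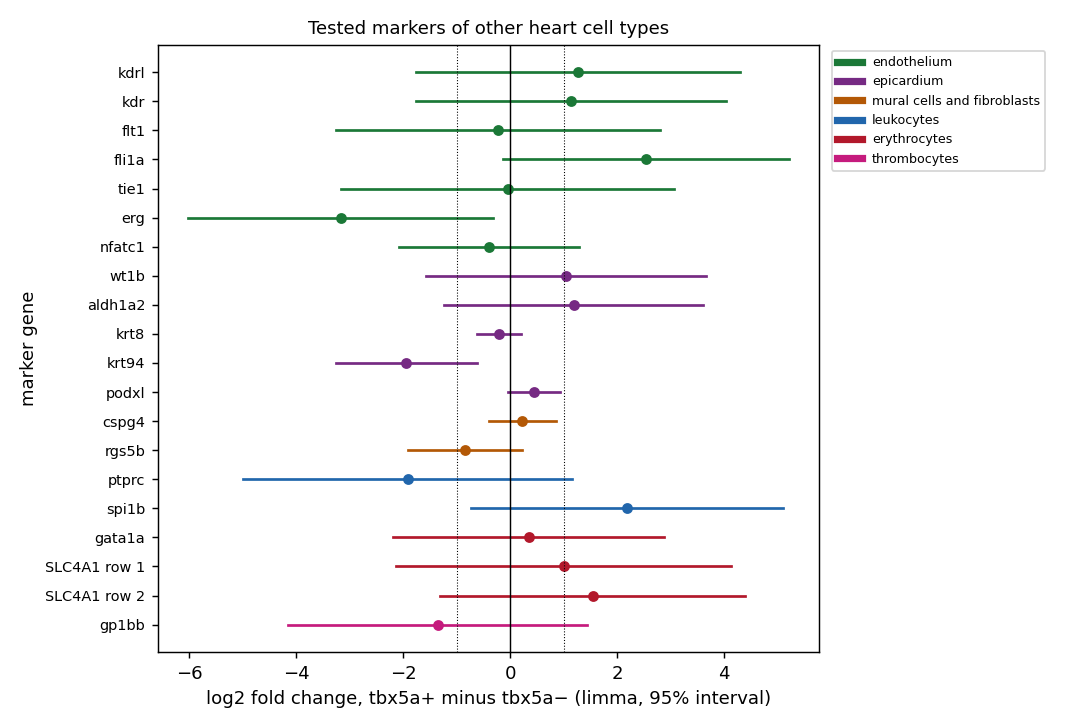
log2 fold change (*tbx5a*+ minus *tbx5a*−, horizontal axis, limma, *n* = 4 libraries each) with its 95% interval for 20 of the 21 marker rows that were tested (vertical axis); the dotted lines stand at -1 and 1. The intervals of *krt8*, *podxl* and *cspg4* lie between the dotted lines, most others cross 0 and are several units wide, and those of *krt94* and *erg* lie below 0 before adjustment for the number of genes tested.

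Of 11 endothelial rows, *flt4*, a receptor of lymphatic and venous endothelium, was at 0 in all libraries, and 7 were tested. *nfatc1*, which encodes a calcium-regulated transcription factor that marks endocardium and is active in lymphocytes too, was the 1 endothelial gene above 0 in all 8 libraries. It had 13.4, 120.8, 68.8 and 14.4 in *tbx5a*+ and 32.4, 25.6, 48.6 and 126.2 in *tbx5a*− libraries. The values spread about equally widely in both populations, and the log2 fold change was -0.40 (standard error, SE, 0.81 and adjusted *p* = 0.95, limma).

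*kdr* and *kdrl*, the zebrafish genes for the endothelial VEGF receptor, were present at low and scattered values. *kdr* had 26.7, 26.5, 5.74 and 8.47 in *tbx5a*+ and 59.2, 0, 1.19 and 14.6 in *tbx5a*− libraries. *kdrl* had 26.7, 2.94, 28.7 and 6.58 in *tbx5a*+ and 0, 32.7, 0 and 20.6 in *tbx5a*− libraries. The populations overlapped in both genes, with log2 fold changes of 1.14 (SE 1.41) for *kdr* and 1.27 (SE 1.47) for *kdrl*. *flt1* and *tie1*, which encode a VEGF receptor and an angiopoietin-pathway receptor of endothelium, were each at 0 in several libraries and reached at most 17.4 and 34.0. *tek*, the angiopoietin receptor gene, stayed at or below 4.29. *egfl7*, which encodes a factor secreted by endothelium, reached 33.5 in 1 library, *tbx5a*− of replicate 10, with at most 6.58 elsewhere.

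A pair of ETS-family transcription factor genes of endothelium had opposite patterns. No *tbx5a*+ library had a read of *erg*, for which the *tbx5a*− libraries had 6.58, 14.3, 55.7 and 0, or 67 estimated reads in all. Its mean in *tbx5a*− cardiomyocytes was 6.54 times a floor of 3 reads per library for *tbx5a*+. Without the library of replicate 9 it was 2.38 times that floor. The floor bounds only the population at 0 and ignores the spread of the other, so these ratios are not lower limits of the difference. The fitted log2 fold change was -3.17 (SE 1.38, with a 95% interval from -6.02 to -0.32), and the adjusted *p* was 0.67 (limma, 0.031 unadjusted). Without the library of replicate 9 the log2 fold change was -2.29. In 3 of 4 pairs the *tbx5a*− library had more. Without the *tbx5a*− library of replicate 10, in which it was at 0, its adjusted *p* was 0.28, the lowest of its alternatives, and without those of replicates 2 and 9 it was 0.87. *fli1a*, listed under the symbol FLI1, had 13.4, 4.91, 0 and 12.2 in *tbx5a*+ libraries, 31 estimated reads in all, and was listed at 0 in all 4 *tbx5a*− libraries. Its *tbx5a*+ mean was 2.44 times a floor of 3 reads per library for *tbx5a*−, which again is not a lower limit. The fitted log2 fold change was 2.53 (SE 1.30, with a 95% interval from -0.14 to 5.21 and adjusted *p* = 0.72, limma), and the interval included 0. Neither gene reached a two-sided exact permutation *p* below 0.143 (4 libraries against 4, where the smallest possible is 0.0286).

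*lyve1b*, which encodes a hyaluronan receptor of lymphatic endothelium, was found in 1 library, *tbx5a*− of replicate 8, at 52.1. The junction protein genes *pecam1a* and *pecam1b*, which the list does not name and which were looked up because *pecam1* was not found, had at most 7.19 and 24.5.

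Of the 8 epicardial rows, *tcf21* and *wt1a*, transcription factor genes that define the zebrafish epicardium, were listed at 0 in all 8 libraries (*wt1a* as WT1). *tbx18*, another epicardial transcription factor gene, had 1.91 in the *tbx5a*+ library of replicate 9, 8.77 in the *tbx5a*− library of replicate 2 and 0 elsewhere. The remaining 5 rows were above 0 in every library, and they fell into genes of high and of low values. *krt8* and *podxl* gave nearly all of the epicardial signal. Of the transcription factor genes, *wt1b* was above 0 in every library, and *tcf21*, *wt1a* and *tbx18* had none or a few reads.

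*krt8*, which encodes a keratin of simple epithelia and of mesothelium, had 1668, 2042, 1992 and 2124 in *tbx5a*+ and 2813, 1803, 2453 and 2068 in *tbx5a*− libraries. The populations overlapped, and the pairs went 2 each way. The log2 fold change was -0.21 (SE 0.20, with a 95% interval from -0.62 to 0.21 and adjusted *p* = 0.84, limma), so a difference of the size needed for a call lay outside the interval. *podxl*, which encodes the sialomucin podocalyxin of vascular and mesothelial surfaces, had 2534, 1201, 1290 and 1931 in *tbx5a*+ and 1394, 1197, 1321 and 1024 in *tbx5a*− libraries. The *tbx5a*+ libraries of replicates 2 and 10 stood above all others. Its log2 fold change was 0.44 (SE 0.24, with a 95% interval from -0.05 to 0.93 and adjusted *p* = 0.72, limma), and 0.50 was the adjusted *p* with the block.

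*krt94*, a keratin gene used in zebrafish as a marker of epicardium and other epithelia, had the lowest *p*-value of all members. Keratins form a large family, among whose members the authors' counting could split reads. *krt94* had 62.6, 19.6, 21.0 and 53.6 in *tbx5a*+ and 401.3, 50.1, 170.7 and 97.0 in *tbx5a*− libraries. In 4 of 4 pairs the *tbx5a*− library was higher, yet the populations overlapped, because the *tbx5a*− library of replicate 8 lay below the *tbx5a*+ libraries of replicates 2 and 10. The means were 39.2 ± 22.1 and 179.8 ± 155.8 (SD, *n* = 4 each), and the log2 fold change was -1.94 (SE 0.64). The unadjusted *p* was 0.0057 and the adjusted *p* 0.51, and 0.16 with the block, all from limma. The exact permutation test gave *p* = 0.0857 (two-sided). Without the *tbx5a*− libraries of replicates 2 and 9 the log2 fold change was -0.997.

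*wt1b*, the paralog of *wt1a*, had 37.9, 22.8, 26.0 and 19.9 in *tbx5a*+ and 135.3, 47.5, 1.07 and 1.13 in *tbx5a*− libraries. The *tbx5a*+ libraries lay close together and within the range of the *tbx5a*− libraries, which ran from about 1 read to the highest value of all. *aldh1a2*, which encodes the retinoic acid synthesis enzyme of epicardium and endocardium, had 40.05, 69.7, 4.78 and 33.9 in *tbx5a*+ and 60.3, 16.4, 2.37 and 5.15 in *tbx5a*− libraries. Neither passed the test, with log2 fold changes of 1.04 (SE 1.27) for *wt1b* and 1.18 (SE 1.17) for *aldh1a2*.

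**Figure D3:**
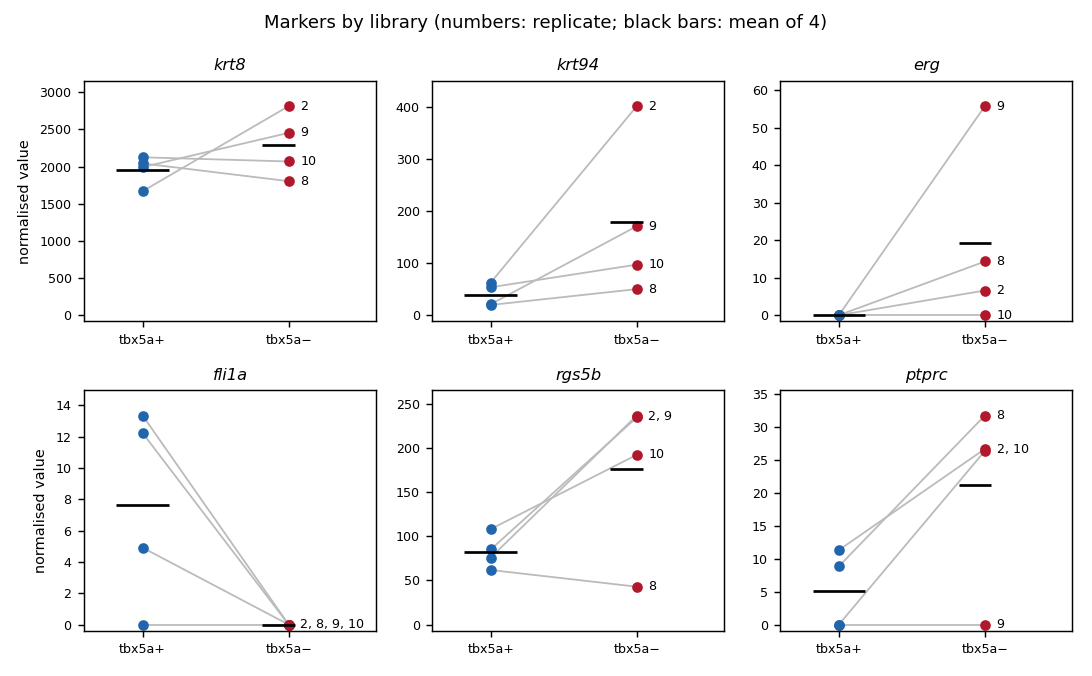
Normalised values (vertical axis, 1 scale per panel) of 6 markers in *tbx5a*+ (blue) and *tbx5a*− (red) libraries; points are libraries, lines join libraries of 1 replicate number, numbers name the replicate and black bars are means of 4. *krt94* is higher in the *tbx5a*− library of all 4 pairs, *erg* is at 0 in all *tbx5a*+ and *fli1a* in all *tbx5a*− libraries, and *krt8* overlaps.

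Among the 4 rows of mural cells and fibroblasts, *rgs5a* (as RGS5), a gene of pericytes and vascular smooth muscle, was at 0 in all libraries. *pdgfra*, the receptor gene of fibroblasts and epicardium-derived cells, was found in 1 library, *tbx5a*− of replicate 2, at 21.9. *cspg4*, which encodes the pericyte proteoglycan NG2, was well detected, with 377.9, 252.3, 241.9 and 400.7 in *tbx5a*+ and 280.7, 220.7, 267.9 and 296.3 in *tbx5a*− libraries. The populations overlapped, with a log2 fold change of 0.23 (SE 0.30, with a 95% interval from -0.40 to 0.85 and adjusted *p* = 0.89, limma).

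*rgs5b*, a regulator of G-protein signalling related to *rgs5a*, had 76.0, 61.8, 85.1 and 108.2 in *tbx5a*+ and 236.9, 42.9, 234.8 and 192.4 in *tbx5a*− libraries. It was higher in the *tbx5a*− library of 3 pairs and lower in that of replicate 8. The log2 fold change was -0.85 (SE 0.51 and adjusted *p* = 0.75, limma). Without the *tbx5a*− library of replicate 8 its unadjusted *p* fell below 0.05, with a log2 fold change of -1.43 and an adjusted *p* of 0.36, the lowest of its alternatives. With the 2 highest libraries left out instead, *tbx5a*− of replicates 2 and 9, the log2 fold change was -0.17 and the adjusted *p* 0.97.

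None of the 6 leukocyte rows was above 0 in all 8 libraries. The neutrophil lysozyme gene *lyz*, the pan-leukocyte actin regulator gene *coro1a* (as CORO1A) and the macrophage scavenger receptor gene *marco* were at 0 in all 8 libraries. *lcp1*, which encodes the leukocyte actin-bundling protein L-plastin, was at 6.87 in the *tbx5a*− library of replicate 10 alone. The 3 rows named MPEG1, which may include the macrophage gene *mpeg1.1* and which the rule did not admit, had at most 8.83. *ptprc*, which encodes the pan-leukocyte phosphatase CD45, had 0, 8.83, 0 and 11.3 in *tbx5a*+ and 26.3, 31.7, 0 and 26.6 in *tbx5a*− libraries. It was higher in the *tbx5a*− library of replicates 2, 8 and 10 and listed at 0 in both libraries of replicate 9. *spi1b* (as SPI1), the myeloid transcription factor gene, had 16.5, 14.7, 12.4 and 0 in *tbx5a*+ and 0, 0, 0 and 7.73 in *tbx5a*− libraries.

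These 2 leukocyte genes differed in opposite directions and neither passed the test. The log2 fold change of *ptprc* was -1.92 (SE 1.49) and that of *spi1b* 2.18 (SE 1.41), with adjusted *p* of 0.78 and 0.75 from limma. The exact permutation *p* was 0.143 for each (two-sided). The *tbx5a*− library of replicate 9 had 0 in all 6 leukocyte rows.

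Of the erythrocyte genes, *hbaa1*, the adult alpha-globin gene, and *alas2*, the first enzyme of haem synthesis in red cells, were at 0 in all 8 libraries. The adult beta-globin gene *hbba1* was not found under its symbol. Of the 5 rows that bear the human-style globin symbol HBE1, 3 were at 0 throughout and the others had at most 18.8. *gata1a*, the erythroid transcription factor gene, was above 0 in every library, with 8.41, 27.8, 15.2 and 12.4 in *tbx5a*+ and 7.42, 46.9, 1.19 and 24.9 in *tbx5a*− libraries. Its log2 fold change was 0.34 (SE 1.23 and adjusted *p* = 0.97, limma). The rows named SLC4A1, of the red cell anion exchanger, cannot be assigned to *slc4a1a* by symbol. The first had 0, 0, 21.0 and 18.8 in *tbx5a*+ libraries and 26.3 in the *tbx5a*− library of replicate 2, with 0 in the other *tbx5a*− libraries. The second reached 15.7 in *tbx5a*+ and 4.29 in *tbx5a*− libraries.

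Of the 3 glial rows, the myelin gene *mbpa* was at 0 in all libraries, and *sox10*, the transcription factor gene of neural crest and Schwann cells, had 2.87 and 1.19 in the *tbx5a*+ and *tbx5a*− libraries of replicate 9 and 0 elsewhere. The thrombocyte gene *gp1bb*, a subunit of the receptor for von Willebrand factor, had 17.5, 10.8, 3.82 and 0 in *tbx5a*+ and 13.2, 22.5, 32.0 and 3.15 in *tbx5a*− libraries, and its log2 fold change was -1.36 (SE 1.35 and adjusted *p* = 0.84, limma). The populations overlapped.

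The summed levels of the lists were compared by library, without a test, since the lists were chosen with results of these data known. Long transcripts yield more reads, so the shares are not compared between lists. Endothelial rows summed to 50.1 to 169.8 in *tbx5a*+ and to 105.5 to 229.3 in *tbx5a*− libraries, and the latter was higher in 2 of 4 pairs. Without *nfatc1*, the endothelial member with the most signal, the sums were 35.7 to 88.3 and 56.9 to 116.5, with overlap, and the *tbx5a*− library was higher in 4 of 4 pairs. In replicate 9 the *tbx5a*− sum of 56.9 was nearly all *erg*, at 55.7, so the direction of that pair rested on this gene. In replicate 8, *lyve1b*, found in no other library, gave 52.1 of 116.5. The sum of a wider endothelial list was higher in the *tbx5a*− library of 4 of 4 pairs, with overlap of the populations. Its strongest row was *notch1b*, with 164.6 to 253.3 in *tbx5a*+ and 311.7 to 479.2 in *tbx5a*− libraries. That row alone was higher in the *tbx5a*− library of 4 of 4 pairs, and the direction of the wider sum rested on it. Without *notch1b* the *tbx5a*− library was not higher in every pair. Epicardial rows summed to 3336 to 4343 and to 3113 to 4812, nearly all of it *krt8* and *podxl*. Without these 2 genes the sums were 53.7 to 140.6 in *tbx5a*+ libraries and 605.8, 113.9, 174.2 and 103.3 in *tbx5a*− libraries, so that the library of replicate 2 stood apart.

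Mural and fibroblast rows summed to 314.1 to 508.9 in *tbx5a*+ and to 263.6 to 539.5 in *tbx5a*− libraries, mostly from *cspg4*. Leukocyte rows summed to 11.3 to 23.6 and to 0 to 41.2, and erythrocyte rows to 24.1 to 42.02 and to 1.19 to 49.96. In both lists the *tbx5a*− library of replicate 9, the library with the fewest genes above 0, was the lowest. In these 5 lists the ranges of the populations overlapped. Sums of wider lists of leukocyte and of thrombocyte genes were higher in the *tbx5a*− library of 4 of 4 pairs. Most of the leukocyte sum, with means of 3545 and 4042, was the coronin gene *coro1cb*, with 3125 and 3373 in *tbx5a*+ and *tbx5a*− libraries. The pairs of this *coro1cb* row went 2 each way. Without that row the leukocyte sum was still higher in the *tbx5a*− library of every pair. This was no longer so in every pair once a weaker row, also named CORO1C, was left out too. The strongest row of the thrombocyte list was the growth factor gene *hbegfa*. The sum of the wider list of mural and fibroblast genes was higher in the *tbx5a*+ library of 4 of 4 pairs. Much of it was *abcc9*, with means of 994.9 in *tbx5a*+ and 587.0 in *tbx5a*− libraries, within mean sums of 1552 and 1254. Without *abcc9* the pairs did not all go that way. With *abcc9* kept, the sum as a share of library signal was lower in the *tbx5a*+ library of replicate 10, at 0.0147% against 0.0164%. The sums of the wider erythrocyte and glial lists were higher in the *tbx5a*+ library of 3 pairs. As a share of library signal, the wider glial list went the other way. Its share was higher in the *tbx5a*− library of 4 of 4 pairs, at 0.0446% to 0.0702% in *tbx5a*+ and 0.0548% to 0.0727% in *tbx5a*− libraries, with overlap. For the wider epicardial list the pairs went 2 each way.

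**Figure D4:**
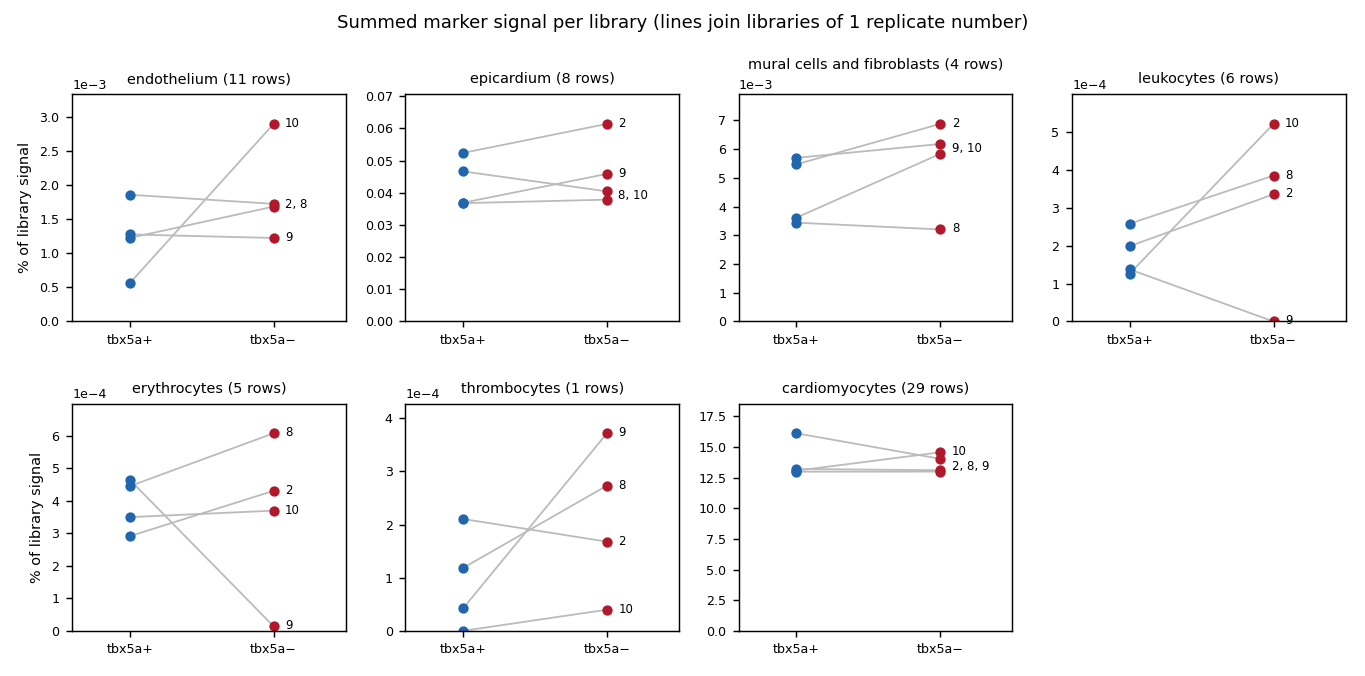
Summed signal of 6 marker lists as a percentage of the total signal of its library (vertical axis, which starts at 0 and has its own scale in each panel), in *tbx5a*+ (blue) and *tbx5a*− (red) libraries; points are libraries, lines join libraries of 1 replicate number, and the last panel is the cardiomyocyte reference list. The populations overlap in every marker list shown, and the *tbx5a*− library of replicate 9 is lowest for leukocytes and erythrocytes.

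For each marker row, the library with the highest value was noted. Of the 28 rows detected anywhere, 9 had their highest value in the *tbx5a*− library of replicate 2. They were *kdr*, *tie1*, *wt1b*, *tbx18*, *krt8*, *krt94*, *pdgfra*, *rgs5b* and the first SLC4A1 row, which are genes of endothelium, epicardium, mural cells, fibroblasts and erythrocytes. The other *tbx5a*− libraries, of replicates 8, 9 and 10, held the highest value of 5, 3 and 4 rows. The *tbx5a*+ libraries held that of fewer, with 4, 1, 1 and 1 rows. In the *tbx5a*− library of replicate 2, *tbx18*, *pdgfra* and the first SLC4A1 row rested on 8, 20 and 24 estimated reads. The share of all genes with their highest value in each library was not counted. Neither the 9 rows nor the split between the populations can therefore be read as particular to markers. The *tbx5a*− library of replicate 2 also had the second lowest number of genes above 0. Without it, limma called 0 member rows, and *krt94* and *erg* again were the 2 with an unadjusted *p* under 0.05.

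Wider lists of genes of the same cell types were counted in the same fit. Of 20 endothelial, 12 epicardial, 11 mural and fibroblast, 16 leukocyte, 12 erythrocyte, 11 glial and 6 thrombocyte rows tested beyond the members, 0 were called by limma in either direction, and with the replicate block 0 as well. At an unadjusted *p* under 0.05, 3 were higher in *tbx5a*+ and 5 in *tbx5a*− cardiomyocytes, against 4.62% and 2.44% of all genes tested. The populations did not overlap in 2 of the tested endothelial rows, 1 in each direction. The same held for 1 mural and fibroblast row, with *tbx5a*+ on top, and for 2 leukocyte rows, with *tbx5a*− on top. In the other wider lists all tested rows overlapped. Of all genes tested, 3.97% did not overlap, 2.32% with *tbx5a*+ and 1.65% with *tbx5a*− on top. The median log2 fold changes were -0.13, 0.12, -0.37, 0.43, 0.16, 0.71 and -0.90 in the same order, against 0.20 for all genes tested. Whether or not they could be tested, 28 of 67 leukocyte, 16 of 38 glial, 8 of 25 erythrocyte and 4 of 13 thrombocyte rows were at 0 in all 8 libraries. So were 5 of 36 endothelial, 3 of 20 epicardial and 6 of 30 mural and fibroblast rows. Of all genes in the table, 36.3% were at 0 throughout.

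The gene with the most signal in each wider list was *notch1b*, *gata5*, *abcc9*, *coro1cb*, *sptb*, *pmp22b* and *hbegfa*, in the order given above. They encode a Notch receptor, a cardiac and endodermal GATA factor, a subunit of ATP-sensitive potassium channels, a coronin, a spectrin, a myelin and membrane protein and a growth factor, several of which muscle also makes. *notch1b*, in the stronger of 2 rows named NOTCH1, had 227.0, 189.4, 253.3 and 164.6 in *tbx5a*+ and 443.0, 311.7, 330.8 and 479.2 in *tbx5a*− libraries, without overlap (log2 fold change -0.90, SE 0.30 and adjusted *p* = 0.51, limma). *abcc9* had 1138, 853, 1005 and 984 against 428.8, 685.7, 564.3 and 669.0, also without overlap (log2 fold change 0.78, SE 0.24 and adjusted *p* = 0.41, limma).

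Some further wider-list genes were chosen after their values were seen. *cdh5*, the gene of the junction protein VE-cadherin, was above 0 in all 8 libraries, with 90.8, 75.6, 8.59 and 80.0 in *tbx5a*+ and 158.6, 58.2, 45.02 and 72.1 in *tbx5a*− libraries. The populations overlapped (log2 fold change -0.64, SE 0.71 and adjusted *p* = 0.86, limma). *srgn*, which encodes the granule proteoglycan serglycin of leukocytes, had 0, 55.0, 3.82 and 11.3 in *tbx5a*+ and 95.4, 55.2, 218.2 and 70.4 in *tbx5a*− libraries. The populations did not overlap, with the *tbx5a*− libraries on top by a margin of less than 1 read, and the gene did not pass the test (adjusted *p* = 0.34, limma). Related genes of 1 list differed in whether they were found. The macrophage receptor gene *csf1ra* was at 0 in all 8 libraries, whereas its paralog *csf1rb* had 104.4 to 148.3 in *tbx5a*+ and 44.2 to 140.9 in *tbx5a*− libraries. The phagocyte oxidase gene *cybb* had 30.3 to 91.4 and 18.2 to 182.3, and the integrin gene *itgae.1* 45.6 to 73.3 and 25.6 to 75.3. The populations overlapped in all 3 genes. Of the globin genes, *hbaa2*, *hbae5* and *hbbe3* were at 0 throughout, and *hbae1.1* and *hbae3* each had reads in 1 library, at 25.8 and 4.91. The leukocyte gene *tyrobp*, the thrombocyte integrin gene *itga2b*, the red cell carbonic anhydrase gene *cahz* and both rows named POSTN, for the matrix protein periostin, were at 0 in all 8 libraries.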

How the data were processed

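Libraries were made from 0.6 ng of total RNA of sorted cells in 2 rounds of amplification and read from 1 end over 60 bases. Adaptors were trimmed with cutadapt and expression per gene was estimated with RSEM and normalised with edgeR by the authors. Notes from the submitters list RSEM 1.2.3, CASAVA 1.8.2 and Zv9, while the study's methods name another RSEM version and a later Ensembl build, and which of them made the table is not known. The deposited values are a normalised signal per gene and library, not counts. In each library, 71.1% to 77.7% of values below 60 lay within 0.0051 of a multiple of 1 spacing, taken as the worth of 1 read, and values divided by it gave estimated reads. Since this held for too few values to recover counts, no count model was used as the main test.

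Symbols came from a table of Ensembl genes. Genes that reached 1 CPM in 2 libraries or more were fitted on log2(value + 1) with limma 3.58.1 in R 4.3.3 (variance trend), which was first tested on simulated data. Sums and exact tests used Python 3.11.15. The labels give each library a pair number, and the series calls the replicates paired. Deviations from the population means correlated at 0.0890, 0.0584, 0.0428 and 0.0763 within pairs 2, 8, 9 and 10, and each library matched its own number best.

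Members, lists and tests were chosen with earlier results of these data known. Values per library were planned for members with an unadjusted *p* under 0.05, with populations that do not overlap or with reads in 1 population alone, and for the 2 with most signal per cell type; those of other members were added after their values were seen. The strongest gene of each wider list and the 3 strongest reference rows are named. Alternatives covered pseudocount, filter, scaling, limma-voom on estimated reads, a robust fit, the replicate block and leaving out libraries. No sequence or coordinate is printed, and 2 genes of the lists, 1 of them a glial member, are not reported here, so that the glial members are described in part only; counts over whole lists include both.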

Additional observations from a re-analysis of the deposited data

Results flagged for a closer look

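In groups of 4 libraries, a library was singled out where its gap to the nearest other exceeded Dixon's 95% critical share of the range of the group, which chance gives in about 1 of 20 groups. Of 49 groups of member values that varied, 13 met this, in 11 of which the other 3 libraries were all at 0. Genes with few reads meet it easily.

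In *tbx5a*− libraries these were *tek* at 4.29 in replicate 10, *egfl7* at 33.5 in replicate 10, *lyve1b* at 52.1 in replicate 8, *tbx18* at 8.77 in replicate 2, *pdgfra* at 21.9 in replicate 2, *lcp1* at 6.87 in replicate 10, *spi1b* at 7.73 in replicate 10, the first SLC4A1 row at 26.3 in replicate 2 and *sox10* at 1.19 in replicate 9. *ptprc* was singled out for its 0 in the *tbx5a*− library of replicate 9, where the other 3 had 26.3 to 31.7. In *tbx5a*+ libraries they were *egfl7* at 6.58 in replicate 10, *tbx18* at 1.91 in replicate 9 and *sox10* at 2.87 in replicate 9.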

How the results depend on the processing

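Under all 19 alternatives, 0 member rows were called, with the replicate block included, and the lowest adjusted *p* of a member in any of them was 0.16 (*krt94* with the block). The pairing thus changed no call. Of the 21 rows tested, 15 kept the sign of their log2 fold change throughout and 6 (*kdrl*, *flt1*, *tie1*, *nfatc1*, *krt8* and *gata1a*) changed it at least once. Scaling by library total moved the median of all genes by -0.11, and leaving out the *tbx5a*− libraries of replicates 2 and 9 by -0.16, after which 0 member rows had an unadjusted *p* under 0.05. Without any filter 28 rows were tested. Leaving out the member with the most signal moved the log2 ratio of summed levels (*tbx5a*+ over *tbx5a*−) from -0.16 to -1.14 for mural and fibroblast genes and from -0.64 to 1.58 for leukocyte genes. It moved that of endothelial genes from -0.48 to -0.77, of epicardial genes from 0.01 to 0.31 and of erythrocyte genes from 0.27 to 1.14, which was less than the spread between replicates. Leaving out 1 library at a time gave ratios of -0.77 to -0.21 for endothelial, -0.07 to 0.15 for epicardial, -0.35 to -0.06 for mural, -1.05 to -0.28 for leukocyte, -0.13 to 0.69 for erythrocyte and -1.86 to -0.69 for thrombocyte genes. Depth limits what can be said of genes with few reads, whose 95% intervals span several log2 units.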
